A study of Homo sapiens with 23 samples.

Results

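The collagen genes other than COL17A1 were followed in A549 cells depleted of THUMPD3. Members were the protein-coding genes whose symbol reads COL, a number, A and a number, which gave 43 genes from COL1A1 to COL28A1 among the 61806 genes counted in the first 17 libraries and the 42901 counted in 6 more deeply sequenced ones. By class, 11 were fibrillar, 6 belonged to the type IV network, 5 to type VI, 10 to the FACITs (fibril-associated collagens with interrupted triple helices), 3 to the hexagonal networks, 3 were transmembrane, 2 multiplexins, 1 an anchoring fibril chain and 2 fell outside these classes.

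A549 is an established line of human lung carcinoma epithelial cells, and THUMPD3 is a tRNA guanosine methyltransferase. The comparisons asked which collagen transcripts changed in level when it was depleted. THUMPD3 was depleted with an siRNA (siD3 #3, 3 libraries, against siControl, 2 libraries) or with either of 2 shRNAs from a doxycycline-inducible lentiviral vector under puromycin selection (shD3 #1 against sh1Control and shD3 #4 against sh4Control, 3 libraries each). The deep libraries repeated shD3 #1 and sh1Control with 3 libraries each, and whether they came from the same cultures is not stated. All groups share the A549 background and the controls are labelled WT. No cloning of the transduced cells is described, and the methods call the controls untreated without naming doxycycline. The siRNA and shRNA cells were harvested after different times, so the agent and the time cannot be told apart.

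Collagens are built from chains that wind in threes into a triple helix, which needs glycine at every turn of the repeat Gly-X-Y. Fibrillar collagens form the fibrils of connective tissue, type IV forms the sheet of basement membranes, type VI forms beaded filaments beside it, and type VII ties the basement membrane to the stroma below. Epithelial cells mainly lay down basement membrane collagens, whereas fibroblasts make most of the fibrillar types. The members shared the repeat in their predicted proteins. The longest run of Gly-X-Y had a median of 61 repeats over the 43 collagens, from 23 in COL26A1 to 343 in COL3A1, against a median of 2 over 20020 protein-coding genes. A run of at least 20 repeats was found in 43 of 43 collagens and in 0.345% of all proteins.

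Depth was 9854294 to 22101059 counts per library in the first set and 27285889 to 59974740 in the deep set. THUMPD3 was lower in every knockdown library, at 30.5 to 32.9 cpm (counts scaled to library size with TMM normalisation) against 59.6 to 62.5 for shD3 #1, 19.2 to 20.2 against 58.6 to 66.0 for shD3 #4, 10.5 to 12.4 against 65.7 to 68.5 for siD3 #3, and 24.9 to 28.3 against 53.0 to 55.9 in the deep set. All 6 epithelial markers were above 1 cpm in every group. Of the 8 fibroblast markers, 2 or 3 reached a mean of 1 cpm in each group, while DCN was at 0 in 6 of the 8 groups. Fibroblast markers summed to 11.1 to 101 cpm, most of it from FBLN1, which was at 21.4 cpm in sh1Control and 9.50 in shD3 #1, and their part in the collagen values was not tested. Endothelial markers summed to at most 2.17 cpm. Leukocyte markers summed to at most 0.407 cpm in the first set and to between 45.3 and 97.7 cpm in the deep set, nearly all from CD68, and the part of this difference between the sets in any collagen value was not tested. Between 21.9% and 32.2% of each first library came from its most abundant gene, whereas the most abundant gene of the deep libraries took 3.03% to 3.98%. Replicate 3 of siD3 #3 stood apart. Its counts differed from those of replicates 1 and 2 by chi-squares of 30.4 and 34.6 per degree of freedom, against 3.76 between replicates 1 and 2, while pairs within the other groups lay between 1.82 and 16.4. Its summed collagen level was 3343 cpm against 2538 and 2426. The log2 fold changes of collagens called in siD3 #3 are therefore given with and without it.

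A gene was tested where it passed edgeR's default filter on low counts in that comparison, and it was called where the adjusted p-value of the quasi-likelihood test was under 0.05 and the change was at least 1.5-fold in either direction. All log2 fold changes are of knockdown against its own control, given ± SE. All adjusted p-values are edgeR's, with Benjamini-Hochberg adjustment over all genes tested. Gene coordinates are those of GENCODE 44 on GRCh38. In bulk RNA, fewer cells that express a collagen and less of its RNA per cell cannot be told apart.

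Of the 43 collagens, 12 were too low to test in any comparison, 9 were tested in 1 to 3 of the 4 comparisons, and 22 were tested in all 4. None of the 12 reached more than 11 counts in any of the 23 libraries. They were COL1A2 and COL2A1 among the fibrillar genes, COL6A5 and COL6A6 of type VI, the hexagonal network genes COL8A1, COL8A2 and COL10A1, COL9A1, COL9A2 and COL19A1 among the FACITs, and the transmembrane genes COL23A1 and COL25A1. COL10A1, the hypertrophic cartilage collagen, had at most 1 count and was at 0 in 21 of 23 libraries. COL19A1 had at most 2 counts and was also at 0 in 21 libraries. A count of 0 still allows up to 3 counts, which is 0.136 to 0.304 cpm in the first libraries and 0.05 to 0.11 cpm in the deep ones, by counting error alone. COL8A2, the highest hexagonal network gene, had 1, 1 and 1 counts in sh1Control and 4, 3 and 1 in shD3 #1. It had 1, 2 and 3 counts in sh4Control, 0, 0 and 0 in shD3 #4, 1 and 1 in siControl and 1, 0 and 0 in siD3 #3. The deep libraries held 2, 7 and 0 counts of it in the controls and 3, 1 and 2 in shD3 #1. Exons of 11 collagens overlap those of a gene on the other strand, by 1563 bases for COL18A1 and SLC19A1, 838 for COL4A3 and MFF-DT, 270 for COL5A3 and at most 155 for the other 8 (COL1A1, COL4A2, COL5A1, COL9A1, COL9A3, COL15A1, COL16A1 and COL19A1). Since the strand setting of the counting is not stated, reads there cannot be told apart. The 12 low genes were removed by the default filter. With every gene of at least 1 count over the libraries kept, edgeR called COL2A1 (adjusted p = 0.00986) and COL9A2 (adjusted p = 0.00682) higher in siD3 #3. In deep shD3 #1 it called COL6A6 (adjusted p = 0.000619) and COL8A1 (adjusted p = 0.0364) higher. It also called the effects of shD3 #1 and shD3 #4 on COL8A2 different (adjusted p = 0.0328). DESeq2 called COL6A6 alone of the 12, in deep shD3 #1 (adjusted p = 0.00488). These calls rest on few reads, for COL8A1 on 6, 0 and 0 counts in the knockdown and none in its controls, and no fold is given for them.

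Levels of different genes were compared only per length, as cpm per kb of the GENCODE canonical transcript. In sh1Control, COL5A2, a chain of the type V collagen that nucleates fibrils, was the highest at 58.7 ± 2.95 cpm per kb (mean ± SD, n = 3). It was followed by COL4A2 at 44.1 ± 0.865, COL18A1 at 42.1 ± 1.0, COL4A1 at 28 ± 1.04 and COL7A1 at 23.5 ± 0.831 cpm per kb. The same 5 genes led in sh4Control, where COL4A2 at 43.4 ± 4.93 and COL18A1 at 36.7 ± 4.72 cpm per kb lay within their spread of each other, and in siControl. With the length of all annotated exons in place of the canonical transcript, COL5A2 remained first in these 3 control groups and COL18A1 came next, before COL7A1, with COL4A2 behind these. The deep controls gave another order, with COL18A1 first at 89.6 ± 1.26 cpm per kb, before COL4A2 at 54.2 ± 4.31, COL5A2 at 35.5 ± 0.601 and COL5A1 at 33.4 ± 2.81.

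By class and per length, the type IV network held 37.3% of the collagen level in sh1Control, the fibrillar genes 29.8%, the multiplexins 16.1%, COL7A1 8.99%, the FACITs 4.81% and type VI 2.56%. In shD3 #1 the fibrillar share was 38.2%, with the summed fibrillar level going from 77.8 to 160.1 cpm per kb and that of type IV from 97.6 to 152.3. In siD3 #3 the summed type VI level was 25.1 against 7.90 cpm per kb in siControl, and its share 6.06% against 2.84%. By library this level was 7.52 and 8.27 cpm per kb in siControl and 16.3, 17.3 and 41.8 in siD3 #3, the highest in replicate 3. In shD3 #4 the type IV level was 82.9 against 94.4 cpm per kb and the fibrillar level 73.5 against 69.6.

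**Figure D1:**
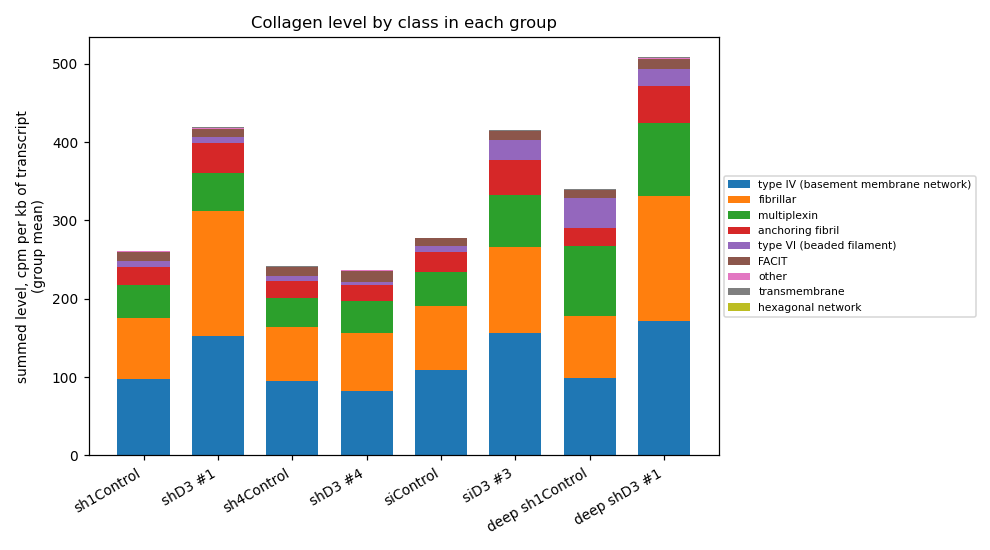
Summed collagen level of each group in cpm per kb of transcript (vertical axis, group mean), stacked by collagen class, with each control to the left of its knockdown. The fibrillar part went from 77.8 to 160.1 cpm per kb between sh1Control and shD3 #1 and from 69.6 to 73.5 between sh4Control and shD3 #4.

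Summed over the 43 genes without regard to length, collagens held 1798, 1821 and 1756 cpm in sh1Control and 2886, 2999 and 2739 cpm in shD3 #1. The sum was 1569, 1610.4 and 1829 cpm in sh4Control and 1651, 1635 and 1647 in shD3 #4, so that these groups overlapped. It was 1873 and 1878 cpm in siControl and 2538, 2426 and 3343 in siD3 #3. In the deep set it was 2210.4, 2272 and 2082 cpm in the controls and 3555, 3398 and 3414 in shD3 #1. The knockdown libraries of shD3 #1, in both sets, and of siD3 #3 all lay above their controls.

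In shD3 #1, 26 collagens were tested, of which 14 were called higher, 6 lower and 6 not called. Of all 16456 genes tested there, 14.5% were called higher and 14.6% lower. The median log2 fold change was 0.68 over the collagens tested and -0.01 over all genes. With at least 10 counts required in every library, which removes genes that pass the default filter through 1 group, 20 collagens remained and 11 were called higher and 3 lower. In shD3 #4, 25 collagens were tested and 8 were called higher, 3 lower and 14 not called, against 8.00% called higher and 4.49% lower among 16493 genes. The medians were 0.26 for collagens and 0.01 for all genes. The stricter filter left 22 collagens, 7 higher and 2 lower.

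In siD3 #3, 29 collagens were tested and 14 were called higher, none lower and 15 not called, against 12.5% higher and 9.42% lower of 17032 genes. Their median was 0.69 against 0.03 for all genes. Of the 14, COL5A3, COL6A3, COL15A1, COL20A1 and COL28A1 had a library under 10 counts, and with at least 10 counts required in every library 21 collagens remained and 10 were called higher, COL1A1 among them. The count lower was 0 in edgeR and in DESeq2, while 1 collagen, COL12A1, was lower at an unadjusted p under 0.05. Without replicate 3 of siD3 #3, 16 collagens were called higher and 1, COL13A1, lower. Without replicate 2 of siControl, 8 were called higher. In the deep set, 27 collagens were tested for shD3 #1, and 12 were called higher, 3 lower and 12 not called, against 15.0% higher and 14.1% lower of 18763 genes. The medians were 0.55 and -0.02, and the stricter filter left 21 collagens, 9 higher and 2 lower.

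**Figure D2:**
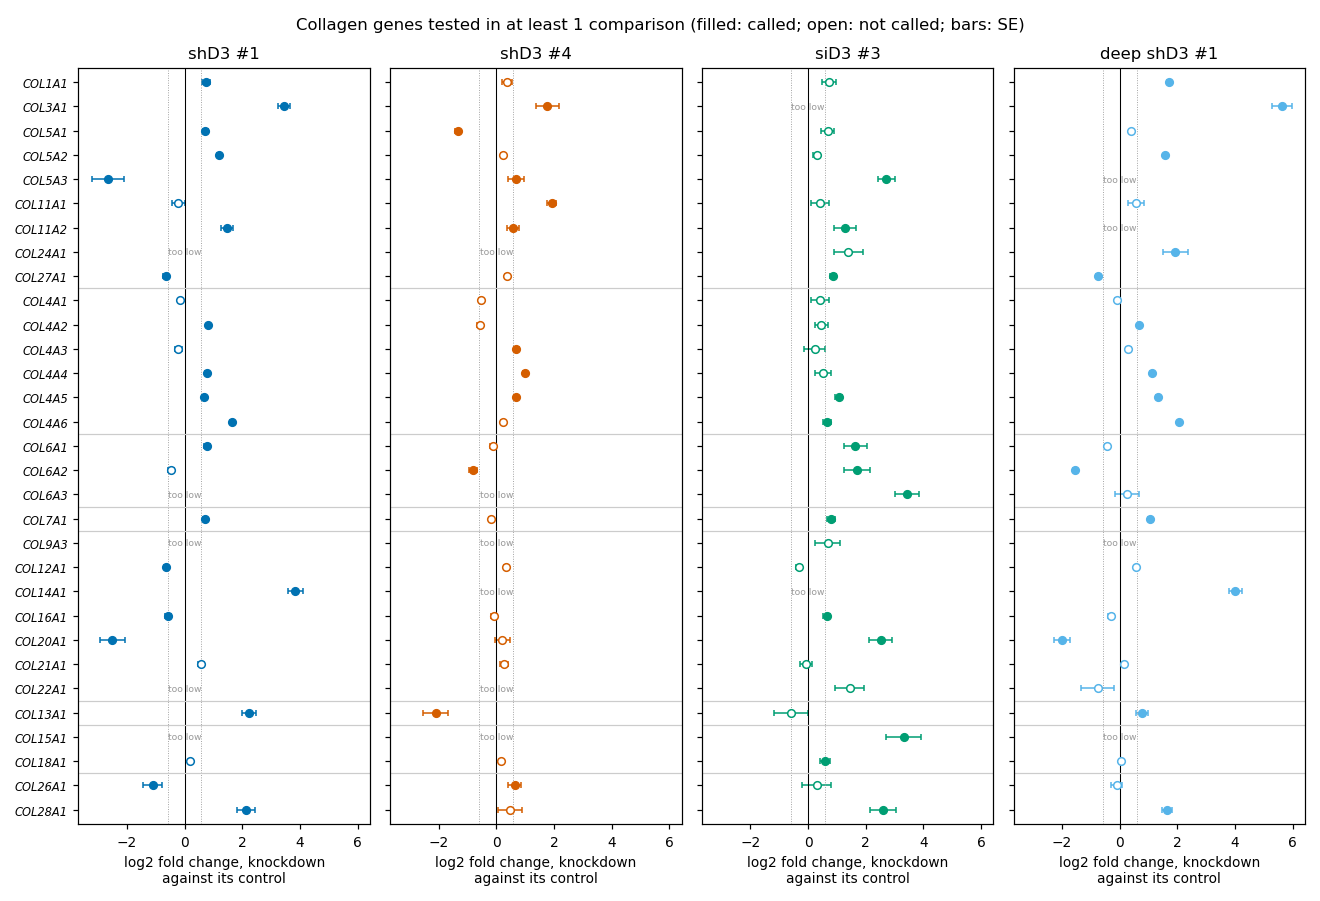
Log2 fold change of each collagen tested in at least 1 comparison (horizontal axis, knockdown against its own control, points with SE bars; filled points were called, open points were not), with lines between classes and dotted lines at a 1.5-fold change. COL4A5 is filled to the right of 0 in all 4 panels, whereas COL5A1 lies at 0.72 in shD3 #1 and at -1.34 in shD3 #4.

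Over the 4 comparisons, 27 collagens were called at least once and 20 at least 2 times. COL4A5 and COL11A2 were called higher in all 3 knockdowns of the first set, although DESeq2 did not call COL11A2 in shD3 #4. No collagen was called lower in all 3. By contrast, 8 collagens were called in opposite directions by different knockdowns of the first set: COL5A1, COL5A3, COL27A1, COL6A2, COL16A1, COL20A1, COL13A1 and COL26A1. DESeq2 did not call COL5A3 or COL26A1 in shD3 #4. The shares of all genes with each of these patterns were not computed, so whether collagens stand out in them was not tested.

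Among the fibrillar genes, 8 of 11 were tested in each first comparison and 7 in the deep set. In shD3 #1, 5 were called higher and 2 lower. In shD3 #4, 4 were called higher and 1 lower, in siD3 #3, 3 higher, and in deep shD3 #1, 4 higher and 1 lower.

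COL5A2 (chr2:189031898-189225312, minus strand), the type V chain that was highest per length, was read at 401, 421 and 381 cpm in sh1Control and at 906, 909 and 916 cpm in shD3 #1 (log2 fold change 1.18 ± 0.06, adjusted p = 1.12e-10). The deep libraries held 245, 238 and 245 cpm in the controls and 747, 691 and 722 in shD3 #1 (log2 fold change 1.57 ± 0.04, adjusted p = 1.2e-12). Every shD3 #1 library thus held more than 1.5 times the level of any of its controls. Smaller differences were seen in shD3 #4, at 410.2, 426 and 386 against 343, 330.4 and 373 cpm (0.22 ± 0.07), and in siD3 #3, at 507, 494 and 592 against 420.2 and 442 cpm (0.30 ± 0.11, and 0.21 without replicate 3), which were not called although the groups did not overlap.

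COL5A1 (chr9:134641803-134844843, plus strand), which pairs with COL5A2 in the usual type V trimer, moved in opposite directions under the shRNAs. It was at 102, 102 and 103 cpm in sh1Control and 173, 189.7 and 141 in shD3 #1 (log2 fold change 0.72 ± 0.09, adjusted p = 2.87e-06). In sh4Control it was at 91.7, 96 and 126 cpm and in shD3 #4 at 43.1, 39.8 and 41.2 (log2 fold change -1.34 ± 0.09, adjusted p = 8.1e-12). All 3 shD3 #1 libraries lay above, and all 3 shD3 #4 libraries below, their controls, and the effects differed by 2.05 ± 0.23 (shD3 #1 minus shD3 #4, adjusted p = 4.82e-07). In siD3 #3 the values were 145, 135 and 238 cpm against 104 and 112, with replicate 3 the highest (log2 fold change 0.68 ± 0.23, adjusted p = 0.0564), and 0.37 without it. The deep values were 293, 298 and 255 cpm in the controls and 370.2, 359 and 384 in shD3 #1 (0.39 ± 0.06), which passed the test but not the fold change limit.

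COL5A3 (chr19:9959561-10010504, minus strand), the minor type V chain, was low throughout. It held 0.83, 0.986 and 1.36 cpm in sh1Control and 0.268, 0 and 0.305 in shD3 #1 (log2 fold change -2.66 ± 0.56, adjusted p = 0.000725), where 1 library had no count. It held 0.654 and 0.624 cpm in siControl and 3.96, 3.6 and 5.13 in siD3 #3 (log2 fold change 2.71 ± 0.30, adjusted p = 0.000457), and 2.54 without replicate 3. The direction was down in shD3 #1 and up in siD3 #3, and the difference of the effects was 5.39 ± 0.61 (siD3 #3 minus shD3 #1, adjusted p = 6.42e-07). In shD3 #4 the values were 1.37, 1.2 and 1.38 cpm against 0.59, 0.858 and 0.999 (log2 fold change 0.69 ± 0.28, adjusted p = 0.0495). This last call was lost on leaving out any of 5 of the 6 libraries, with adjusted p-values from 0.0653 (without shD3 #4 replicate 2) to 0.216 (without sh4Control replicate 1). Deep libraries held too little of it to test, at 0.204, 0.198 and 0.271 cpm in the controls and 0.196, 0.22 and 0.166 cpm in the knockdown, and the groups overlapped.

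COL3A1 (chr2:188974373-189012746, plus strand), the type III collagen of extensible tissue, rose from near absence with both shRNAs. It was at 0.415, 0.812 and 0.555 cpm in sh1Control and 6.36, 6.65 and 6.31 in shD3 #1 (log2 fold change 3.45 ± 0.22, adjusted p = 2.23e-09). It was at 0.16, 0.715 and 0.158 cpm in sh4Control and 1.28, 0.975 and 1.43 in shD3 #4 (log2 fold change 1.77 ± 0.40, adjusted p = 0.000885). The deep libraries held 0.051, 0.139 and 0.018 cpm in the controls and 3.85, 3.33 and 3.21 in shD3 #1 (log2 fold change 5.63 ± 0.34, adjusted p = 2.58e-09), where the controls had 3, 7 and 1 counts, so that the size of this fitted value is uncertain. Every knockdown library lay above its controls in these comparisons. In siD3 #3 the gene was too low to test, at 0.163 and 0.416 cpm in the controls and 0.519, 0.514 and 0.747 in the knockdown, without overlap. COL3A1 and COL5A2 lie beside each other on chromosome 2 on opposite strands.

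COL1A1 (chr17:50184101-50201632, minus strand) encodes the main chain of type I collagen, the chief collagen of bone and skin. It was at 5.14, 3.71 and 5.09 cpm in sh1Control and 7.83, 8.41 and 6.82 in shD3 #1 (log2 fold change 0.74 ± 0.15, adjusted p = 0.000523). The deep levels were 7.67, 8.14 and 8.28 cpm in the controls and 25.4, 26 and 27.8 cpm in the knockdown (log2 fold change 1.72 ± 0.07, adjusted p = 3.63e-11). Its usual partner COL1A2 was too low to test, with at most 4 counts in any library and none in 13 of 23. In shD3 #4 COL1A1 was at 6.43, 5.27 and 4.93 cpm against 2.98, 3.72 and 6.26 (log2 fold change 0.37 ± 0.19, adjusted p = 0.112), with overlapping groups. In siD3 #3 it was at 4.95, 4.17 and 5.38 against 2.4 and 3.53 cpm (log2 fold change 0.72 ± 0.24, adjusted p = 0.0501), just outside the limit, and 0.64 (adjusted p = 0.0547) without replicate 3.

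COL11A2 (chr6:33162681-33192499, minus strand), a type XI chain of cartilage fibrils, was called higher in all 3 first knockdowns. It was at 1.45, 1.62 and 1.41 cpm in sh1Control and 5.09, 3.35 and 4.28 in shD3 #1 (log2 fold change 1.49 ± 0.21, adjusted p = 1.73e-05). It was at 1.49, 2.1 and 1.84 cpm in sh4Control and 2.41, 3.38 and 2.47 cpm in shD3 #4 (log2 fold change 0.59 ± 0.20, adjusted p = 0.0234), and at 1.09 and 1.45 cpm in siControl and 1.89, 3.31 and 4.08 cpm in siD3 #3 (log2 fold change 1.29 ± 0.38, adjusted p = 0.0359). The groups did not overlap in any of the 3. The shD3 #4 call was lost without sh4Control replicate 1 (0.46, adjusted p = 0.108) or shD3 #4 replicate 2 (0.42, adjusted p = 0.153). It was also lost with DESeq2, with every gene of at least 1 count kept and in 1 fit of all 17 libraries. The siD3 #3 call was lost without either siControl library (adjusted p = 0.203 and 0.104) or without siD3 #3 replicate 2 (adjusted p = 0.0911), and it was 1.02 without replicate 3. In the deep libraries, whose table lists genes by symbol, COL11A2 had at most 1 count each.

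COL11A1 (chr1:102876467-103108872, minus strand), the other type XI chain, was called in shD3 #4 alone, where it went from 1.65, 1.96 and 2.37 cpm to 7.47, 7.57 and 7.63 (log2 fold change 1.92 ± 0.15, adjusted p = 1.81e-10). In the other comparisons it was not called, and the effect in shD3 #4 exceeded that in shD3 #1, at -2.14 ± 0.34 for shD3 #1 minus shD3 #4 (adjusted p = 4.27e-05), and that in siD3 #3, at -1.5 ± 0.33 for siD3 #3 minus shD3 #4 (adjusted p = 0.00187). Without replicate 3, siD3 #3 gave a called value of 0.66 (adjusted p = 0.0285) against 0.42 ± 0.32 with it.

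COL27A1 (chr9:114155537-114312511, plus strand), a fibrillar collagen of cartilage, fell with shD3 #1 and rose with siD3 #3. It was at 40.1, 42.3 and 42.6 cpm in sh1Control and 27.9, 28.7 and 21.8 in shD3 #1 (log2 fold change -0.65 ± 0.09, adjusted p = 9.98e-06). Deep libraries had it at 62.9, 67.4 and 63.4 cpm in the controls and 40.4, 37.2 and 36.3 cpm in the knockdown (log2 fold change -0.77 ± 0.06, adjusted p = 1.85e-08). In siControl it was at 39.5 and 36.4 cpm and in siD3 #3 at 70.3, 65.3 and 73 (log2 fold change 0.87 ± 0.09, adjusted p = 0.000451), and 0.83 without replicate 3. No groups overlapped, and the 2 effects differed by 1.54 ± 0.14 (siD3 #3 minus shD3 #1, adjusted p = 3.16e-08). Without shD3 #1 replicate 3 the first value was -0.56, inside the fold change limit. In shD3 #4 the levels were 45.6, 48.8 and 45.5 cpm against 31.4, 37.2 and 38.9 (0.38 ± 0.08), not called. COL24A1, also fibrillar, was called in the deep set, at 0.619, 0.403 and 0.388 cpm against 0.136, 0.0595 and 0.162 (log2 fold change 1.93 ± 0.43, adjusted p = 0.00136), and was too low to test with either shRNA in the first set.

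**Figure D3:**
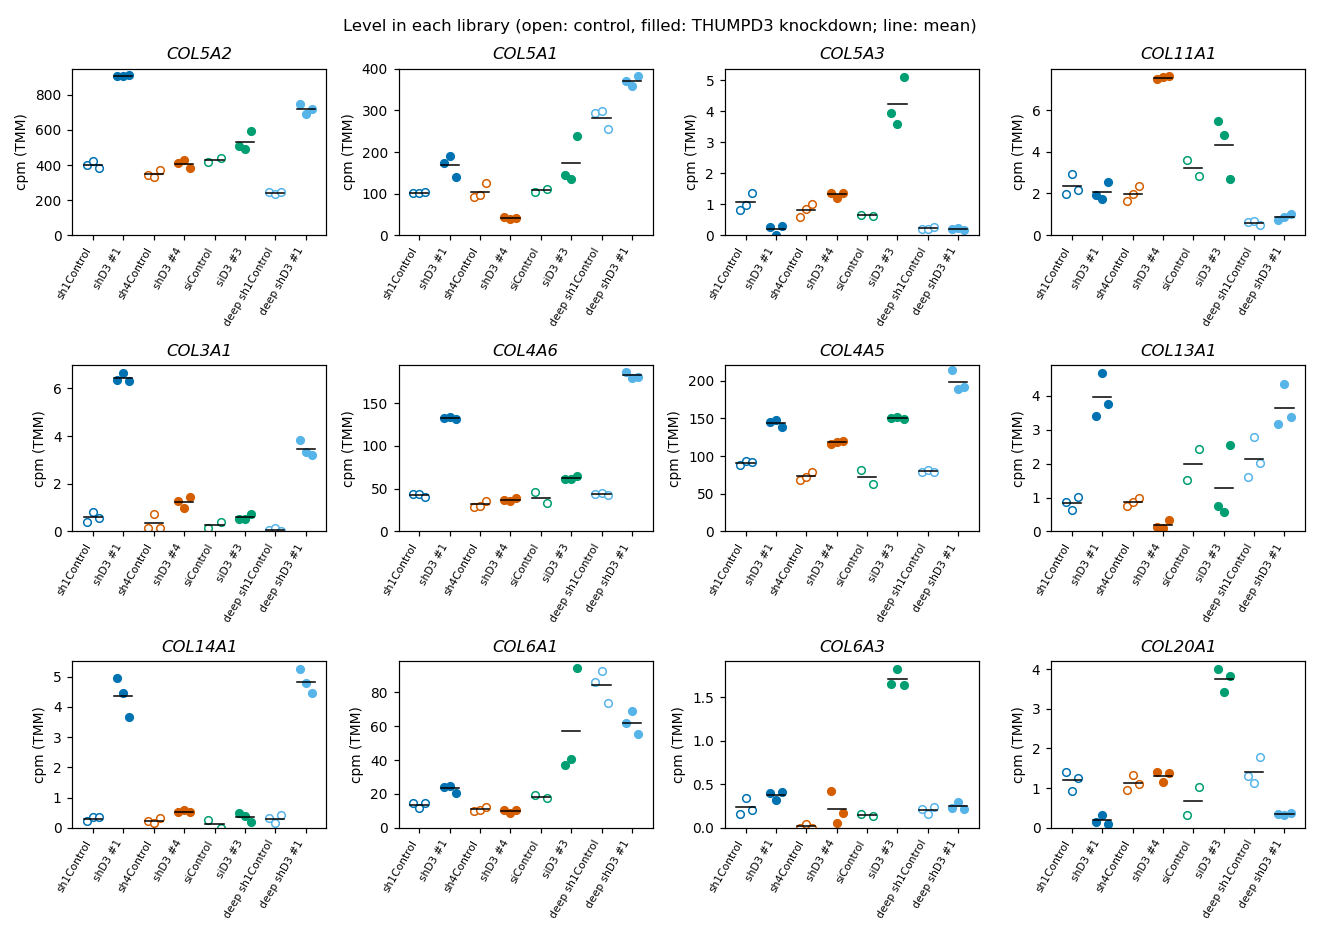
Level of 12 collagens in each library (vertical axis, TMM cpm from 0; open points are control libraries, filled points THUMPD3 knockdown libraries, short lines group means), in the order of the 4 comparisons. COL5A2 sits at 906 to 916 cpm in shD3 #1 against 381 to 421 in its controls, and COL11A1 at 7.47 to 7.63 cpm in shD3 #4 against 1.65 to 2.37 in its controls.

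The 6 type IV genes were all tested in all 4 comparisons. Of them, 4 were called higher in shD3 #1, 3 in shD3 #4, 2 in siD3 #3 and 4 in deep shD3 #1. None was called lower with the default settings of edgeR, although 1 was lower at an unadjusted p under 0.05 in shD3 #1 and 2 in shD3 #4. COL4A2 lay at the fold change limit in shD3 #4. It was called lower there by DESeq2 (-0.60), by edgeR with every gene of at least 1 count kept (-0.59) and in 1 fit of all 17 libraries (-0.60). The same held on leaving out sh4Control replicate 1 (-0.65) or 2 (-0.61) or shD3 #4 replicate 1 (-0.59) or 3 (-0.59). The genes lie in 3 head-to-head pairs, each sharing the stretch of DNA between the starts. The trimers follow this pairing only in part. COL4A1 and COL4A2 form the common basement membrane heterotrimer, and COL4A5 and COL4A6 another. The trimer of kidney and lung, by contrast, joins COL4A3 and COL4A4 with COL4A5 from a different pair.

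The promoters are shown because the members of each pair are transcribed from nearly the same place, while their ratio lay apart from that of the controls with shD3 #1. With the other knockdowns this did not hold for COL4A2 and COL4A1, and no ratio could be called. The nearest RefSeq starts of COL4A1 and COL4A2 are 127 bases apart on chromosome 13, so that the 300-base windows around them overlap by 226 bases, and those of COL4A6 and COL4A5 are 380 bases apart on the X chromosome, with an overlap of 121 bases. The windows below are from RefSeq on GRCh38.p14, reaching from upstream of the start to just past it, 5′ to 3′ on the strand of the gene, with CCAAT and GGGCGG in either orientation in capitals. They lie at chr13:110307108-110307407 on the minus strand for COL4A1, chr13:110307034-110307333 on the plus strand for COL4A2, chrX:108439409-108439708 on the minus strand for COL4A6 and chrX:108439588-108439887 on the plus strand for COL4A5.
COL4A1: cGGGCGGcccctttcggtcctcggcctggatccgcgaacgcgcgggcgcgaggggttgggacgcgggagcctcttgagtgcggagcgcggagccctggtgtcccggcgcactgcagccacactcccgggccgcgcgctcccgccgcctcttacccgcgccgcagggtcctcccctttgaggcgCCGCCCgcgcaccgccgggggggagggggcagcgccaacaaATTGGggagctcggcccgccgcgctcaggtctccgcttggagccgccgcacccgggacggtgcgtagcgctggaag
COL4A2: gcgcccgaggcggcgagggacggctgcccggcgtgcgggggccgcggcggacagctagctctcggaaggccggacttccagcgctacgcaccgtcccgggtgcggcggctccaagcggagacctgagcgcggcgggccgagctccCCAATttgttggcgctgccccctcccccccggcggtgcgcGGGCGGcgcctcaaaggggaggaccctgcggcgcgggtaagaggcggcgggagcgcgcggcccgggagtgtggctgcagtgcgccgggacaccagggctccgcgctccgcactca
COL4A6: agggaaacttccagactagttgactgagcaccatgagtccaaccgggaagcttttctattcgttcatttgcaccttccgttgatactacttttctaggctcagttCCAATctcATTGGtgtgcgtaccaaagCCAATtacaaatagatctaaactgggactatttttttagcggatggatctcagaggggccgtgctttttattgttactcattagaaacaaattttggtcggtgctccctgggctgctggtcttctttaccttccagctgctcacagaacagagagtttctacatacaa
COL4A5: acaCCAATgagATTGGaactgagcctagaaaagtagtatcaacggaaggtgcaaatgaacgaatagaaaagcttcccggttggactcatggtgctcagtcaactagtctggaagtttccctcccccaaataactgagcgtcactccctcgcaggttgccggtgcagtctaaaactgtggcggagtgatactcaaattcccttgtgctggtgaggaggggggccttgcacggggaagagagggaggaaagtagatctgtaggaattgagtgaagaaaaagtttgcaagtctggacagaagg
Both windows of the COL4A1 and COL4A2 pair held GGGCGG and CCAAT, while those of COL4A6 and COL4A5 held CCAAT and no GGGCGG. RefSeq gives COL4A6 another start, 1416 bases from that of COL4A5, whose window (chrX:108438373-108438672) does not overlap that of COL4A5 and held 1 GGGCGG and no CCAAT. A RefSeq window was at hand for 31 of the 43 collagens, 43 windows in all. Of these, 13 held CCAAT, against 34.6% of all 35116 windows, 24 held GGGCGG, against 45.0%, and 7 held TATAAA, against 11.5%, each in either orientation. TGACTCA was in 0 of the 43 windows and in 4.95% of all. These are matches of letters, not binding sites.

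COL4A2 (chr13:110305812-110513209, plus strand) rose with shD3 #1 and COL4A1 did not. COL4A2 was at 291, 282 and 280.4 cpm in sh1Control and 494, 533 and 485 in shD3 #1 (log2 fold change 0.83 ± 0.06, adjusted p = 7.85e-09), and at 356, 373 and 319 cpm in the controls and 558, 557 and 553 cpm in the knockdown in the deep set (log2 fold change 0.67 ± 0.05, adjusted p = 5.38e-08). COL4A1 (chr13:110148963-110307157, minus strand) was at 186, 188 and 176 cpm in sh1Control and 161, 177 and 158 in shD3 #1 (log2 fold change -0.15 ± 0.06, adjusted p = 0.0548), and at 142, 149.8 and 125 cpm in the controls and 131, 130.4 and 129 cpm in the knockdown in the deep set (log2 fold change -0.09 ± 0.06, adjusted p = 0.161). For COL4A2 no libraries overlapped, whereas for COL4A1 they did. In shD3 #4 both were below their controls, COL4A2 at 190.3, 183 and 188 against 254, 269.9 and 315 cpm (log2 fold change -0.58 ± 0.07, adjusted p = 3.86e-07) and COL4A1 at 134, 138 and 126 against 188, 190.1 and 203 cpm (log2 fold change -0.55 ± 0.06, adjusted p = 1.7e-07). Both values passed the test and fell short of the fold change limit, COL4A2 by less than 0.01. In siD3 #3 the values were 359, 353 and 587 against 305 and 324 cpm for COL4A2 (log2 fold change 0.46 ± 0.22, adjusted p = 0.147) and 254, 259.7 and 507 against 207 and 305 cpm for COL4A1 (log2 fold change 0.41 ± 0.31, adjusted p = 0.354). Replicate 3 was the highest for both, and without it the log2 fold changes were 0.17 and -0.01.

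COL4A6 (chrX:108155607-108439497, minus strand) had the largest type IV change with shD3 #1. It was at 43.7, 44.4 and 40.3 cpm in sh1Control and 133, 134 and 132 in shD3 #1 (log2 fold change 1.64 ± 0.06, adjusted p = 1.32e-11). In the deep set it was at 44.2, 44.5 and 42.7 cpm in the controls and 187, 180.0 and 180.5 cpm in the knockdown (log2 fold change 2.06 ± 0.04, adjusted p = 1.05e-13). The shD3 #1 libraries lay within 3 cpm of each other in the first set, far above the controls. In siD3 #3 it was at 61.1, 60.8 and 65.1 cpm against 46.4 and 32.8 (log2 fold change 0.65 ± 0.14, adjusted p = 0.0112). That value was 0.61 without replicate 3 and was lost without siControl replicate 2 (0.41, adjusted p = 0.054). With shD3 #4 it stood at 36.5, 36.1 and 39 against 29.2, 29.9 and 35.7 cpm (0.23 ± 0.08), not called.

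COL4A5 (chrX:108439838-108697545, plus strand), whose loss causes Alport syndrome, was the only collagen called higher in all 4 comparisons. It was at 88.8, 93.4 and 91.9 cpm in sh1Control and 145, 148 and 138 in shD3 #1 (log2 fold change 0.66 ± 0.06, adjusted p = 1.43e-07). It was at 68.2, 72.1 and 79.5 cpm in sh4Control and 116, 118 and 120.1 in shD3 #4 (log2 fold change 0.69 ± 0.07, adjusted p = 6.29e-09), and at 81.1 and 63.4 cpm in siControl and 150.3, 152 and 149 in siD3 #3 (log2 fold change 1.06 ± 0.12, adjusted p = 0.00049). No knockdown library overlapped its controls. The siD3 #3 value was 1.05 without replicate 3, and the deep values were 79.3, 80.9 and 79.3 cpm in the controls and 213, 189 and 192 cpm in the knockdown (log2 fold change 1.31 ± 0.05, adjusted p = 2.24e-11). Leaving out any 1 library kept all 4 calls.

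COL4A4 (chr2:227002714-227164453, minus strand) rose with both shRNAs. It was at 29, 30.4 and 31.2 cpm in sh1Control and 51.5, 53.8 and 50.5 in shD3 #1 (log2 fold change 0.78 ± 0.07, adjusted p = 6.95e-08), and at 27.7, 31.7 and 35.1 cpm in sh4Control and 61.9, 61.8 and 63.4 in shD3 #4 (log2 fold change 0.99 ± 0.07, adjusted p = 8.08e-11). The deep levels were 24.9, 24.1 and 25.1 cpm in the controls and 58.4, 46.1 and 55.6 cpm in the knockdown (log2 fold change 1.11 ± 0.07, adjusted p = 7.85e-09). In siD3 #3, replicates 1 and 2 lay above and replicate 3 below the controls, at 36.7, 34.9 and 18.6 against 21.3 and 20.4 cpm (log2 fold change 0.52 ± 0.27, adjusted p = 0.169), and without replicate 3 the value was 0.77 (adjusted p = 0.000157) and called. COL4A3 (chr2:227164624-227314792, plus strand) was called in shD3 #4, at 30.3, 29.8 and 29.1 against 17.5, 17.9 and 19.7 cpm (log2 fold change 0.70 ± 0.08, adjusted p = 4.96e-08). No call was made for shD3 #1 (-0.22 ± 0.11), siD3 #3 (0.23 ± 0.38) or the deep set (0.30 ± 0.08). Without replicate 3, COL4A3 stood at 0.55 in siD3 #3 (adjusted p = 0.00599), which passed the test and lay just inside the fold change limit.

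Ratios of counts between partner chains within a library do not depend on the scaling of that library. With 3 libraries against 3 the smallest two-sided p of the exact permutation test is 0.1, and over the 20 ratios tested (5 pairs in 4 comparisons) the smallest adjusted p was 0.133, so no ratio could be called. The COL4A2 to COL4A1 ratio was 1.56, 1.5 and 1.6 in sh1Control and 3.06, 3.02 and 3.07 in shD3 #1, and in the deep set 2.51, 2.49 and 2.55 in the controls and 4.26, 4.27 and 4.28 in shD3 #1. In shD3 #4 it went from 1.44 ± 0.103 to 1.41 ± 0.0853 (SD, n = 3 each) and in siD3 #3 from 1.27 ± 0.288 to 1.31 ± 0.134 (SD, n = 2 and 3), with overlapping libraries in both (exact permutation p = 0.7 each). Every shD3 #1 library of either set thus lay above its controls.

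The COL4A6 to COL4A5 ratio was higher with shD3 #1, from 0.469 ± 0.0276 to 0.925 ± 0.0238 in the first set and from 0.548 ± 0.00977 to 0.923 ± 0.0411 in the deep set. It was lower with the others, from 0.431 ± 0.0174 to 0.315 ± 0.00978 in shD3 #4 and from 0.545 ± 0.0391 to 0.414 ± 0.0196 in siD3 #3. No knockdown library overlapped its controls in any of the 4 (exact permutation p = 0.1 each). COL4A4 to COL4A3 went from 1.87 ± 0.338 to 3.68 ± 0.201 in shD3 #1, from 1.71 ± 0.113 to 2.1 ± 0.0699 in shD3 #4 and from 1.48 ± 0.127 to 2.59 ± 0.213 in the deep set. In siD3 #3 it went from 1.87 ± 0.104 to 2.43 ± 0.479, without overlap (exact permutation p = 0.2), and replicate 3 was the highest of its libraries at 2.98.

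**Figure D4:**
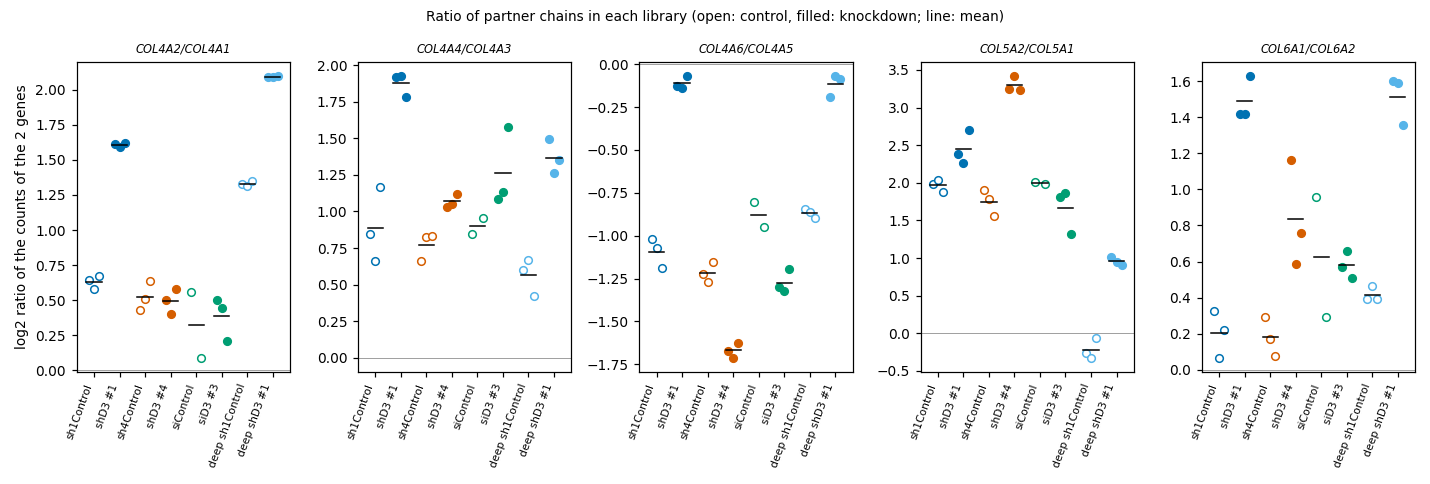
Log2 ratio of the counts of 2 partner genes in each library (vertical axis) for 5 pairs, with open points for control and filled points for knockdown libraries and short lines for group means. COL4A6 to COL4A5 lies higher than its controls in both sets of shD3 #1 and lower in shD3 #4 and siD3 #3, while COL5A2 to COL5A1 is highest in shD3 #4.

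Ratios within type V and type VI also lay apart in level, with the same limit on the test. COL5A2 to COL5A1 was 3.74, 3.44 and 2.95 in sh4Control and 9.51, 10.7 and 9.37 in shD3 #4. It went from 3.91 ± 0.214 to 5.51 ± 0.893 in shD3 #1 and from 0.864 ± 0.0852 to 1.94 ± 0.0687 in the deep set. In siD3 #3 it went from 4.0 ± 0.0658 to 3.21 ± 0.633 (exact permutation p = 0.3). The siD3 #3 libraries were at 3.50, 3.65 and 2.49, with replicate 3 the lowest. COL6A1 to COL6A2 went from 1.16 ± 0.103 to 2.81 ± 0.243 in shD3 #1, from 1.13 ± 0.085 to 1.81 ± 0.381 in shD3 #4 and from 1.33 ± 0.037 to 2.87 ± 0.264 in the deep set. Each of these groups lay apart from its control. In siD3 #3 the COL6A1 to COL6A2 ratio went from 1.58 ± 0.51 to 1.5 ± 0.0805, with overlapping libraries (exact permutation p = 0.8).

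Type VI collagen is assembled from the chains of COL6A1, COL6A2 and COL6A3 (or its relatives COL6A5 and COL6A6), of which COL6A3 was near the detection limit. All 3 were called higher in siD3 #3. COL6A1 (chr21:45981770-46005050, plus strand) was at 19.4 and 17.4 cpm in siControl and 37.3, 40.5 and 94.2 in siD3 #3 (log2 fold change 1.64 ± 0.40, adjusted p = 0.0166). COL6A2 (chr21:46098112-46132848, plus strand) was at 9.97 and 14.2 cpm in the controls and 25.1, 25.6 and 66.3 cpm in the knockdown (log2 fold change 1.7 ± 0.45, adjusted p = 0.0235). COL6A3 (chr2:237324003-237414328, minus strand) was at 0.163 and 0.139 cpm in the controls and 1.65, 1.83 and 1.64 cpm in the knockdown (log2 fold change 3.43 ± 0.40, adjusted p = 0.000686). Replicate 3 held more than 2 times the COL6A1 and COL6A2 level of the other 2 libraries, and without it the values were 1.07 and 1.07 (adjusted p = 3.06e-05 and 0.000377), while COL6A3 was at 3.44. With only 1 siControl library left in, COL6A1 (1.71 and 1.55, adjusted p = 0.0924 and 0.112) and COL6A2 (1.45 and 1.96, adjusted p = 0.158 and 0.0854) kept log2 fold changes of similar size but were not called.

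With shD3 #1, COL6A1 was called higher and COL6A2 was not called. COL6A1 was at 14.7, 11.7 and 14.5 cpm in sh1Control and 24.1, 24.7 and 20.8 in shD3 #1 (log2 fold change 0.77 ± 0.10, adjusted p = 7.59e-06), and COL6A2 at 11.7, 11.2 and 12.5 cpm in the controls and 9.04, 9.26 and 6.72 cpm in the knockdown (log2 fold change -0.47 ± 0.12, adjusted p = 0.00339). In shD3 #4 COL6A1 was at 9.9, 10.3 and 12.2 cpm in the controls and 10.8, 8.43 and 10.5 cpm in the knockdown (log2 fold change -0.12 ± 0.11, adjusted p = 0.418), and COL6A2 at 8.09, 9.16 and 11.6 cpm in the controls and 4.82, 5.62 and 6.2 cpm in the knockdown (log2 fold change -0.80 ± 0.13, adjusted p = 3e-05). COL6A2 was thus below its controls with both shRNAs. Its effect in siD3 #3 exceeded that in shD3 #1 by 2.19 ± 0.43 (adjusted p = 0.000428) and that in shD3 #4 by 2.51 ± 0.44 (adjusted p = 0.00019). Without replicate 3 of siD3 #3 these differences were 1.56 and 1.88. For COL6A1 the effect in siD3 #3 exceeded that in shD3 #4 by 1.77 ± 0.38 (adjusted p = 0.00145). The difference from shD3 #1 was not called (0.88 ± 0.37, adjusted p = 0.0652). Without replicate 3 these values were 1.20 and 0.30. Deep libraries had COL6A1 at 85.9, 92.8 and 73.6 cpm in the controls and 61.8, 68.9 and 55.5 in shD3 #1 (log2 fold change -0.44 ± 0.08, adjusted p = 0.000311), and COL6A2 at 65.4, 67.4 and 56 cpm in the controls and 20.4, 22.9 and 21.7 cpm in the knockdown (log2 fold change -1.54 ± 0.07, adjusted p = 2.27e-10). For COL6A1 the direction in the deep set was opposite to that in the first set. COL6A3 was too low to test with either shRNA in the first set and not called in the deep set (0.25 ± 0.41).

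COL7A1 (chr3:48564073-48595329, minus strand), the sole chain of the anchoring fibril, rose with shD3 #1 and siD3 #3. It was at 211, 226 and 214 cpm in sh1Control and 365, 386 and 315 in shD3 #1 (log2 fold change 0.71 ± 0.07, adjusted p = 4.29e-07). It was at 243 and 228 cpm in siControl and 390.1, 353 and 484 in siD3 #3 (log2 fold change 0.80 ± 0.14, adjusted p = 0.0049), and 0.65 without replicate 3. Deep libraries had it at 215, 228 and 204 cpm in the controls and 452, 433 and 440.0 cpm in the knockdown (log2 fold change 1.03 ± 0.05, adjusted p = 1.42e-10). All these knockdown libraries lay above their controls. The shD3 #4 comparison gave 173, 181 and 198 against 198, 212 and 214 cpm (log2 fold change -0.18 ± 0.07, adjusted p = 0.0348), and the effects of shD3 #1 and shD3 #4 differed by 0.89 ± 0.14 (adjusted p = 2.8e-05).

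FACITs decorate fibrils without forming them. Of 10, 5 were tested in shD3 #1 (1 higher, 3 lower), 4 in shD3 #4 (none called by edgeR, 1 higher and 0 lower at an unadjusted p under 0.05), 6 in siD3 #3 (2 higher) and 6 in the deep set (1 higher, 1 lower).

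COL12A1 (chr6:75084326-75206267, minus strand), the most abundant FACIT per length in the first controls, fell with shD3 #1, from 95.4, 91.9 and 86.9 cpm to 55.8, 61.9 and 57 (log2 fold change -0.65 ± 0.07, adjusted p = 6.84e-07). The direction was opposite in the deep set, from 62.6, 65.4 and 62.1 to 96, 90.5 and 94.6 cpm (log2 fold change 0.56 ± 0.05, adjusted p = 7.24e-08), inside the fold change limit and with no overlap of the groups. In shD3 #4 it was at 88, 86.7 and 101 cpm in the controls and 119, 116 and 115 cpm in the knockdown (0.34 ± 0.07), and in siD3 #3 at 41 and 37.5 cpm in the controls and 31.9, 28.4 and 35 cpm in the knockdown (-0.31 ± 0.11), neither called. Without replicate 3 the siD3 #3 value was -0.39.

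COL14A1 (chr8:120059780-120373573, plus strand), a FACIT that regulates fibril growth, rose steeply with shD3 #1. It was at 0.208, 0.348 and 0.353 cpm in sh1Control and 4.95, 4.47 and 3.67 in shD3 #1 (log2 fold change 3.84 ± 0.27, adjusted p = 8.85e-09), and at 0.306, 0.159 and 0.415 cpm in the controls and 5.25, 4.79 and 4.46 cpm in the knockdown in the deep set (log2 fold change 4.01 ± 0.23, adjusted p = 1.69e-09). It was too low to test elsewhere, at 0.213, 0.143 and 0.316 cpm in sh4Control and 0.52, 0.573 and 0.516 cpm in shD3 #4 and at 0.272 and 0 cpm in siControl and 0.472, 0.40 and 0.199 cpm in siD3 #3. The sh libraries did not overlap in either case, while the siRNA libraries did.

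COL16A1 (chr1:31652263-31704319, minus strand) was at 12.1, 11.4 and 12.2 cpm in sh1Control and 7.83, 8.36 and 7.33 in shD3 #1 (log2 fold change -0.59 ± 0.11, adjusted p = 0.000187), and at 19.2 and 17 cpm in siControl and 29.2, 26 and 29.8 in siD3 #3 (log2 fold change 0.65 ± 0.12, adjusted p = 0.00471). It fell in the former and rose in the latter, and the effects differed by 1.25 ± 0.15 (siD3 #3 minus shD3 #1, adjusted p = 1.22e-06). The shD3 #1 call lay at the fold change limit and was lost without sh1Control replicate 1 (-0.57) or 3 (-0.56) or shD3 #1 replicate 1 (-0.58) or 3 (-0.55). The siD3 #3 call was lost without siControl replicate 2 (0.55) and was 0.60 without replicate 3. With shD3 #4 it stood at 13.7, 11.4 and 11.6 cpm in the controls and 11.6, 11 and 12.3 cpm in the knockdown (-0.07 ± 0.10) and in the deep set at 9.42, 9.76 and 8.86 cpm in the controls and 8.35, 6.51 and 7.84 cpm in the knockdown (-0.30 ± 0.10), not called.

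COL20A1 (chr20:63293186-63334851, plus strand) was another low FACIT, and it moved in opposite directions. It was at 1.4, 0.928 and 1.26 cpm in sh1Control and 0.134, 0.319 and 0.102 in shD3 #1 (log2 fold change -2.51 ± 0.43, adjusted p = 0.000115), and at 1.31, 1.13 and 1.79 cpm in the controls and 0.359, 0.329 and 0.36 cpm in the knockdown in the deep set (log2 fold change -2.0 ± 0.29, adjusted p = 2.63e-05). It was at 0.327 and 1.04 cpm in siControl and 4.01, 3.43 and 3.83 in siD3 #3 (log2 fold change 2.52 ± 0.40, adjusted p = 0.0027), and 2.51 without replicate 3. Down in every shD3 #1 library and up in every siD3 #3 library, its effects differed by 5.05 ± 0.54 (siD3 #3 minus shD3 #1, adjusted p = 3.11e-07). The shD3 #4 comparison gave 0.958, 1.34 and 1.1 cpm in the controls and 1.42, 1.15 and 1.38 cpm in the knockdown (0.21 ± 0.25), and the groups overlapped. COL21A1 was tested in all 4 comparisons and called in none, with log2 fold changes from -0.06 ± 0.22 in siD3 #3 to 0.57 ± 0.11 in shD3 #1. COL22A1 was tested in 2 comparisons and COL9A3 in 1, and neither was called in them. In shD3 #1 both were too low for the default filter, and both were called lower with every gene of at least 1 count kept. DESeq2 called COL9A3 lower there too. In the fit of 17 libraries, siD3 #3 minus shD3 #1 was called for COL9A3 (2.96 ± 0.75, adjusted p = 0.00362) and COL22A1 (3.35 ± 0.81, adjusted p = 0.00259). The shD3 #1 minus shD3 #4 difference was called for COL9A3 (-2.49 ± 0.71, adjusted p = 0.00805).

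COL13A1 (chr10:69801880-69964275, plus strand), a transmembrane collagen of cell junctions and the only one of its class that could be tested, moved oppositely with the shRNAs. It was at 0.882, 0.638 and 1.01 cpm in sh1Control and 3.41, 4.68 and 3.77 in shD3 #1 (log2 fold change 2.23 ± 0.23, adjusted p = 7.42e-07). It was at 0.745, 0.858 and 0.999 cpm in sh4Control and 0.142, 0.115 and 0.344 in shD3 #4 (log2 fold change -2.11 ± 0.43, adjusted p = 0.000299). The effects differed by 4.32 ± 0.71 (shD3 #1 minus shD3 #4, adjusted p = 5.8e-05), and neither pair of groups overlapped. In the deep set it was at 1.6, 2.78 and 2.02 cpm in the controls and 3.16, 4.35 and 3.38 cpm in the knockdown (log2 fold change 0.77 ± 0.20, adjusted p = 0.00339). In siD3 #3 replicate 3 lay above the controls and the others below them, at 0.755, 0.571 and 2.54 against 1.53 and 2.42 cpm (log2 fold change -0.58 ± 0.59, adjusted p = 0.489). Without replicate 3 the gene was called lower there, at -1.53 (adjusted p = 0.00853).

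The multiplexins COL18A1 and COL15A1 carry endostatin-type domains and sit in basement membrane zones. COL18A1 (chr21:45405165-45513720, plus strand) was at 229.8, 221 and 231 cpm in sh1Control and 271, 273 and 233 in shD3 #1 (0.19 ± 0.07), and at 183, 184 and 228 cpm in sh4Control and 231, 198 and 235 cpm in shD3 #4 (0.16 ± 0.08). The deep levels were 484, 491 and 478 cpm in the controls and 532, 512 and 464 cpm in the knockdown (0.05 ± 0.05). None of these was called. In siD3 #3 it was called higher at the fold change limit, at 382, 341 and 351 against 284 and 190.4 cpm (log2 fold change 0.59 ± 0.17, adjusted p = 0.0284). This call was lost without siControl replicate 2 (0.32), siD3 #3 replicate 1 (0.55) or siD3 #3 replicate 2 (adjusted p = 0.0615), and it was 0.60 without replicate 3. COL15A1 was tested in siD3 #3 alone, at 1.7, 2.06 and 2.89 cpm against 0.0545 and 0.416 (log2 fold change 3.31 ± 0.60, adjusted p = 0.00488). The value was 3.07 without replicate 3. Its controls had 1 and 6 counts, so that the size of this fitted value is uncertain.

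Outside these classes, COL26A1 (chr7:101362875-101559024, plus strand) was at 2.28, 2.49 and 1.71 cpm in sh1Control and 0.87, 1.49 and 0.305 in shD3 #1 (log2 fold change -1.11 ± 0.33, adjusted p = 0.00944), and at 1.33, 1.43 and 1.47 cpm in sh4Control and 2.46, 1.95 and 2.12 cpm in shD3 #4 (log2 fold change 0.63 ± 0.21, adjusted p = 0.0192). It was lower in the former and higher in the latter, and the effects differed by -1.75 ± 0.44 (shD3 #1 minus shD3 #4, adjusted p = 0.00304). The shD3 #4 call was lost without sh4Control replicate 1 (adjusted p = 0.062) or 2 (adjusted p = 0.0506) or shD3 #4 replicate 1 (0.53). In siD3 #3 it was at 0.872 and 0.277 cpm in the controls and 0.708, 0.914 and 0.598 cpm in the knockdown, and in the deep set at 1.63, 1.71 and 1.43 cpm in the controls and 1.79, 1.46 and 1.19 cpm in the knockdown, with overlapping groups in both. COL28A1 (chr7:7356203-7535873, minus strand), a collagen with von Willebrand factor A domains found in peripheral nerve, was at 0.778, 0.29 and 0.403 cpm in sh1Control and 2.34, 2.08 and 2.14 in shD3 #1 (log2 fold change 2.12 ± 0.31, adjusted p = 2.8e-05). It was at 0.218 and 0.762 cpm in siControl and 2.5, 2.8 and 3.24 cpm in siD3 #3 (log2 fold change 2.6 ± 0.44, adjusted p = 0.00359), 2.49 without replicate 3, and at 1.27, 1.37 and 1.77 cpm in the controls and 5.41, 4.24 and 4.07 cpm in the knockdown in the deep set (log2 fold change 1.63 ± 0.17, adjusted p = 1.02e-06). All of these knockdown libraries lay above their controls. In shD3 #4 it was at 0.372, 0.525 and 0.316 cpm in the controls and 0.709, 0.631 and 0.344 cpm in the knockdown (0.48 ± 0.40), not called.

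Whether the knockdowns differed in their effect on a collagen was tested in 1 fit of the 17 first libraries, in which 31 collagens were tested. The effects of shD3 #1 and shD3 #4 differed for 17 collagens, with 25.9% of all 18672 genes called different. Those of siD3 #3 and shD3 #1 differed for 14, against 25.4% of all genes, and those of siD3 #3 and shD3 #4 for 13, against 17.8%. Without replicate 3 of siD3 #3 the latter 2 counts were 17 and 12. With at least 10 counts in every library, 19 collagens could be tested, of which 9, 5 and 9 differed, in the same order. No share of all genes is given for that filter, so whether collagens stand out under it was not tested. These counts share groups and were not compared with each other.

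For shD3 #1, both sets tested 24 collagens. Of these, 13 were called in both sets, all in the same direction. The share of all genes for which this held was not computed. COL1A1, COL3A1, COL5A2, COL4A2, COL4A4, COL4A5, COL4A6, COL7A1, COL14A1, COL13A1 and COL28A1 were higher and COL27A1 and COL20A1 lower. The log2 fold change had opposite signs for COL11A1, COL4A3, COL6A1 and COL12A1, none of which was called in both sets.

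The control levels also differed between the sets. COL6A1 was 6.17 times and COL6A2 5.34 times as high in deep sh1Control as in sh1Control, COL5A1 2.75 times and COL18A1 2.13 times, whereas COL5A2 was at 0.605 and COL12A1 at 0.694 of the first level. Across the 16 collagens at 5 cpm or more in sh1Control, the log2 ratio of the sets had a Spearman correlation of 0.574 with the GC content of the transcript, and of 0.392 across all 24. These points share the same 6 libraries and are given as a description. The tables were counted on different gene lists and with different library make-up, and the part of either in these differences was not tested.

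**Figure D5:**
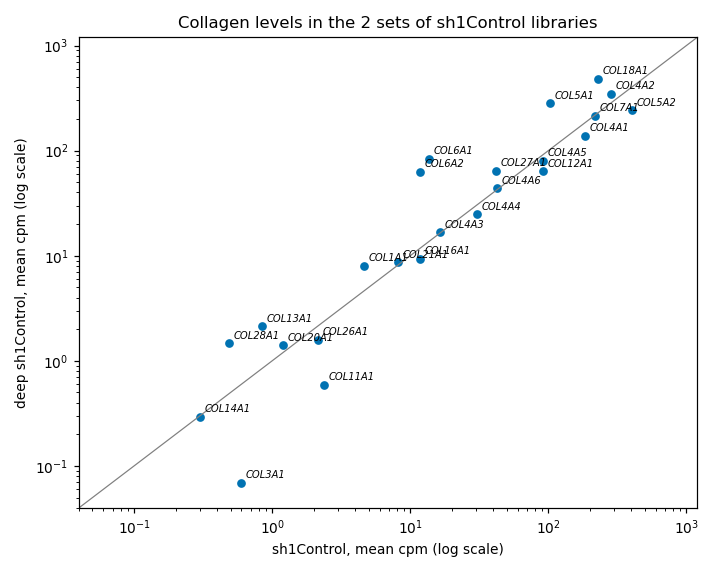
Mean level of the 24 collagens tested in both sets in sh1Control (horizontal axis, cpm, log scale) and deep sh1Control (vertical axis, cpm, log scale), with the line of equal levels. COL6A1, COL6A2 and COL5A1 lie above the line and COL3A1 and COL11A1 below it.

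Genes that make, export, bind, cut or regulate collagen were counted from lists of 18, 18, 11, 20 and 21 genes. Their counts are to be read against the shares of all genes called higher and lower, which were 14.5% and 14.6% in shD3 #1, 8.00% and 4.49% in shD3 #4, 12.5% and 9.42% in siD3 #3 and 15.0% and 14.1% in the deep set. Values without replicate 3 of siD3 #3 were not computed for these lists. Of the enzymes that modify and fold the chains, 17 were tested in shD3 #1, with 2 higher and 3 lower, from FKBP14, an isomerase of the endoplasmic reticulum (-0.94 ± 0.08), to the lysyl hydroxylase PLOD3 (0.75 ± 0.07). In shD3 #4, 1 was lower, the collagen-modifying P3H3 (-0.60 ± 0.11), and none higher by edgeR. In siD3 #3, P4HA2, a prolyl hydroxylase subunit, was higher (0.74 ± 0.14) and P3H3 lower (-0.85 ± 0.16). In the deep set 18 were tested, with 5 higher and 3 lower, from P4HA3 (-0.87 ± 0.10) to the prolyl 3-hydroxylase P3H1 (0.86 ± 0.05).

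Of the export, propeptide cleavage and crosslinking genes, 12 were tested in each first comparison and 14 in the deep set. In shD3 #1, 3 were higher and 3 lower, from the procollagen C-proteinase enhancer PCOLCE2 (-0.94 ± 0.11) to the lysyl oxidase-like LOXL4 (0.91 ± 0.20). In shD3 #4, 2 were higher and 2 lower, from LOXL2 (-0.71 ± 0.07) to the tolloid-like protease TLL1 (1.51 ± 0.11). In siD3 #3, 3 were higher, led by TLL2 (2.16 ± 0.50), the smallest of them LOXL4 (1.05 ± 0.18), and 0 were lower. The deep set had 3 higher and 3 lower, from PCOLCE2 (-1.13 ± 0.09) to BMP1, the main procollagen C-proteinase (0.95 ± 0.04).

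Among the collagen receptors, 9 were tested in each first comparison and 8 in the deep set. The integrin subunit ITGA11 was the most raised with shD3 #1, from 5.17 to 32.2 cpm (2.64 ± 0.09), and ITGA1 the most lowered (-1.2 ± 0.10), with 4 higher and 1 lower in all. The deep set gave 2.81 ± 0.06 and -1.05 ± 0.13 for these genes, with 3 higher and 1 lower. In shD3 #4 only ADGRG1, which binds type III collagen, was called (0.82 ± 0.09). In siD3 #3, 4 were higher, from DDR1 (0.61 ± 0.14) to DDR2 (1.2 ± 0.32), both collagen-binding receptor kinases.

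Of the genes that degrade collagen or inhibit its degradation, 7 of 15 tested were higher and 1 lower in shD3 #1, 3 of 12 higher in shD3 #4, 10 of 16 higher in siD3 #3, and 4 higher and 3 lower of 14 in the deep set. MMP1, the interstitial collagenase, went from a mean of 0.0193 to 2.47 cpm in shD3 #1, 0.0619 to 1.65 in siD3 #3 and 0.0243 to 0.475 in the deep set. Its fitted fold change is no bound, since its controls were near 0. CTSS, a lysosomal protease, fell with shD3 #1 in the first (-1.91 ± 0.09) and deep sets (-0.93 ± 0.07). In shD3 #4 the called genes ran from CTSL (0.80 ± 0.08) to MMP16 (1.11 ± 0.13). In siD3 #3 the smallest called change was that of the inhibitor TIMP4 (0.61 ± 0.18).

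Of the regulators of collagen transcription, 3 were higher and 3 lower of 17 in shD3 #1, 2 and 2 of 17 in shD3 #4, 3 and 1 of 17 in siD3 #3, and 3 and 3 of 18 in the deep set. RUNX2, a skeletal transcription factor, was the most raised in shD3 #1 (1.06 ± 0.28) and the most lowered in shD3 #4 (-1.66 ± 0.38). SMAD2, a TGF-beta effector, was the most lowered in shD3 #1 (-1.12 ± 0.06). SOX6, a cartilage regulator, was the most raised in shD3 #4 (1.77 ± 0.17) and siD3 #3 (1.35 ± 0.36), and YBX1 was lower in siD3 #3 (-0.61 ± 0.10). Among deep libraries, SOX9 was the most raised (1.51 ± 0.08) and SP7 the most lowered (-1.17 ± 0.42). Medians over these 5 lists lay between -0.06 and 0.75 in the 4 comparisons, the highest for degradation genes in siD3 #3, against 0.68, 0.26, 0.69 and 0.55 for the collagens tested.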

How the data were processed

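RNA was measured in 23 A549 libraries. Per the labels and methods, the authors depleted rRNA, built directional libraries (NEXTFLEX), trimmed reads with Trimmomatic 0.40, and aligned them to GRCh38.p14 with STAR 2.7.10a, which also counted reads per gene. The deposited values are raw counts. The methods name a RefSeq annotation, while 1 table lists Ensembl identifiers and the other symbols. The strand column counted is not stated, so reads of genes that overlap on opposite strands may not be separable. Identifiers were matched to symbols through GENCODE 44, which held 61757 of the 61806 Ensembl identifiers.

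Each knockdown was compared with its control in edgeR 4.0.16 (R 4.3.3) with filterByExpr, TMM, the quasi-likelihood test and Benjamini-Hochberg adjustment. A gene was called at an adjusted p under 0.05 with at least a 1.5-fold change. Differences between knockdowns were contrasts in 1 fit of 17 libraries. SE is the log2 fold change over the square root of F. Intervals and limits for counts of 0 cover counting error only. The methods call the replicates biological. Alternatives were DESeq2 1.42.0, its size factors, other filters and thresholds, a replicate block, 1 fit of all 17 libraries and leaving out each library.

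Every collagen is accounted for, and values of every library are given for the 20 called in at least 2 comparisons and for the highest of each class per length. In the related gene lists, the largest and smallest called changes are named. The members and lists were chosen with earlier results of these data known. COL11A1, COL4A1, COL4A3, COL6A3, COL15A1, COL24A1, COL21A1, COL9A3 and COL22A1 were named after their values were seen. Sequences are from RefSeq.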

Additional observations from a re-analysis of the deposited data

Results flagged for a closer look

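The effect of the knockdowns on collagens differed between the reagents by a test of the difference itself, in 1 edgeR fit of the 17 first libraries. Of 31 collagens tested, 17 differed between shD3 #1 and shD3 #4, 14 between siD3 #3 and shD3 #1, and 13 between siD3 #3 and shD3 #4. Of all 18672 genes, 25.9%, 25.4% and 17.8% differed. With at least 10 counts in every library, 9, 5 and 9 of 19 collagens differed, and no share of all genes is given for that filter. Several of the collagens that differed in the main fit were called in opposite directions by the knockdowns compared.

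For shD3 #1 minus shD3 #4, the difference in log2 fold change was 2.05 ± 0.23 for COL5A1, which was higher in 3 of 3 shD3 #1 and lower in 3 of 3 shD3 #4 libraries than in any control. It was 4.32 ± 0.71 for COL13A1, -3.35 ± 0.61 for COL5A3 and -1.75 ± 0.44 for COL26A1. COL13A1 was higher with shD3 #1 and lower with shD3 #4, and COL5A3 and COL26A1 the reverse. The shD3 #4 calls of COL5A3 and COL26A1 were lost under 12 and 7 of 14 alternatives, DESeq2 among them. The shD3 #1 call of COL16A1 was lost under 7 of 14. For siD3 #3 minus shD3 #1, the difference was 5.39 ± 0.61 for COL5A3, 5.05 ± 0.54 for COL20A1, 1.54 ± 0.14 for COL27A1 and 1.25 ± 0.15 for COL16A1, each higher with the siRNA and lower with the shRNA. For siD3 #3 minus shD3 #4 it was 2.51 ± 0.44 for COL6A2. Without replicate 3 of siD3 #3, these values were 5.22 for COL5A3, 5.03 for COL20A1, 1.49 for COL27A1, 1.2 for COL16A1 and 1.88 for COL6A2. All 9 differences passed the thresholds under every alternative that could test them. With at least 10 counts in every sample, those of COL5A3, COL13A1, COL20A1 and COL26A1 could not be tested. The siRNA and the shRNAs also differ in agent and harvest time, and the knockdowns, the shRNAs included, in remaining THUMPD3. The part of these in the differences was not tested.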

How the results depend on the processing

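Of the 60 calls of single collagens over the 4 comparisons, 31 were kept under every alternative that tested the gene, and none reversed. A call on a gene that an alternative could not test was not counted as lost there. With at least 10 counts in every sample, this was so for 6 collagens called in shD3 #1, 2 in shD3 #4, 5 in siD3 #3 and 4 in the deep set. At a log2 fold change of at least 1, collagens called higher numbered 7 in shD3 #1, 2 in shD3 #4 and 9 in siD3 #3, and 3 were lower in shD3 #1. With glmTreat, a test against the threshold itself, the numbers were 9, 3 and 7 higher, and 2 lower in shD3 #1. With at least 10 counts in every sample, which tests fewer genes, 3 were lower in shD3 #1. Of the 19 collagens that could then be tested for a difference, 9 differed between shD3 #1 and shD3 #4. For siD3 #3 the numbers were 5 against shD3 #1 and 9 against shD3 #4, and no share of all genes is given for this filter. DESeq2 called 5 higher in shD3 #4, and the cause was not tested. Apart from the replicate block and leaving out a library, all other counts stayed within 1.5 times.

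Leaving out 1 library gave 14 to 15 higher and 5 to 7 lower in shD3 #1, 6 to 11 and 3 to 4 in shD3 #4, 8 to 16 and 0 to 1 in siD3 #3, and 12 to 14 and 3 in the deep set. The differences called ranged from 15 to 20, from 13 to 17 and from 12 to 15. The lone control left in siD3 #3 is then assumed to vary like the knockdown libraries.

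Whether replicate numbers pair the libraries could not be decided with so few libraries. Deviations from the group means of same-numbered libraries correlated between -0.08 and 0.07 in the shRNA comparisons, against -0.06 to 0.06 for other numbers. In siD3 #3 they correlated at 0.14 and -0.11, but the deviations of 2 controls mirror each other, so these values cannot tell. With the replicate block, 14, 7, 17 and 12 collagens were higher in shD3 #1, shD3 #4, siD3 #3 and the deep set, and 6, 3, 1 and 3 lower. Differences called numbered 18, 14 and 13. The 12 collagens never tested, and COL3A1, COL14A1, COL6A3 and COL15A1 in the controls, lie near the limit set by depth.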
